A study of Mus musculus with 66 samples.

Results

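The core circadian clock loop was followed here through 8 genes, Arntl (also written Bmal1), Clock, Npas2, Per1, Per2, Per3, Cry1 and Cry2, in 66 mRNA libraries of the mouse central nervous system. The 8 genes were taken by symbol from a table of 45706 gene identifiers, each symbol matched 1 identifier, and all 8 were expressed above the low-count filter in every comparison. The libraries came from mice homozygous for 1 of 5 spontaneous alleles of Rorb, the gene of an orphan nuclear receptor, that give a high-stepping gait, and from C57BL/6J and DBA/1J controls. Brain hemisections (the brain cut along the midline) and whole spinal cords were taken from the same 24 animals, 3 each of C57BL/6J, Rorb h1/h1, DBA/1J and Rorb h5/h5 and 4 each of the h2/h2, h3/h3 and h4/h4 mutants, aged 7.9 to 9.6 weeks. Cortex, hippocampus and cerebellum were taken from 6 other animals, 3 DBA/1J and 3 Rorb h5/h5, all labelled 7.0 weeks. The labels give these 6 animals other identifiers and ages than the 24, although the study's methods can be read as taking regions and hemisections from the same Rorb h5/h5 brains, and the study mentions a small age difference in the hippocampus comparison. Every group held both sexes by its labels, but 1 Rorb h5/h5 region animal labelled female had Y-linked transcripts.

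Rorb h1/h1 to Rorb h4/h4 were compared with C57BL/6J, and Rorb h5/h5, which arose on DBA/1J, with DBA/1J. The Rorb h1/h1 mice share a series of animal identifiers with the C57BL/6J controls, whereas Rorb h2/h2, h3/h3 and h4/h4 each have a series of their own. The h2 and h3 alleles arose on the albino B6(Cg)-Tyr c-2J/J background and their causal mutations are unknown. The study lists the background of h4 as B6.129S7-Il1r1, a C57BL/6 stock that carries a targeted Il1r1 allele. In those 3 comparisons the allele, the stock and the collection of the animals cannot be told apart. No time of day of collection is given in the sources used here.

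In the mammalian clock, a heterodimer of ARNTL with CLOCK, or with its paralogue NPAS2, binds E-box elements and activates the Per and Cry genes, whose protein products accumulate, enter the nucleus and repress that heterodimer. The activators are called the positive limb and the PER and CRY proteins the negative limb. In a coupled loop, REV-ERB repressors (Nr1d1, Nr1d2) and ROR activators, the family to which Rorb belongs, compete for elements in the Arntl promoter, and PAR bZip factors (Dbp, Tef, Hlf) and their repressor Nfil3 act through D-boxes. In most tissues Arntl mRNA peaks about opposite to Per mRNA, so a single sample carries a trace of the phase at which it was collected. NPAS2 is best known from the forebrain, and Per1 and Per2 also respond acutely to light, stress hormones and neuronal activity.

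The start regions of 5 members are shown because 4 of them carry the letters through which the loop is wired, and the fifth, Npas2, is the member that passed the test in mutants. Each is the RefSeq window from 250 bases before to 50 bases after a transcript start (build GRCm38.p6, 5′ to 3′ on the gene's strand), and capitals mark a match to the E-box CACGTG, the D-boxes TTATGTAA and TTACGTAA, the ROR elements TAGGTCA and TGGGTCA or the cyclic AMP element TGACGTCA on either strand. Positions count from the start.
Arntl, chr7:113207261-113207560, plus strand, TAGGTCA at position 31: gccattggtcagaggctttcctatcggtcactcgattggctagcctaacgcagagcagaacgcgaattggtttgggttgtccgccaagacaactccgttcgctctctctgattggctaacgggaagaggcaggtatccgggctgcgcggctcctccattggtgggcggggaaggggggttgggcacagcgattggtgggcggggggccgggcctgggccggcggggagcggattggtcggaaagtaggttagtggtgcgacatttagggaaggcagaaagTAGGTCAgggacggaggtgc
Per1, chr11:69098699-69098998, plus strand, CACGTG at position -166: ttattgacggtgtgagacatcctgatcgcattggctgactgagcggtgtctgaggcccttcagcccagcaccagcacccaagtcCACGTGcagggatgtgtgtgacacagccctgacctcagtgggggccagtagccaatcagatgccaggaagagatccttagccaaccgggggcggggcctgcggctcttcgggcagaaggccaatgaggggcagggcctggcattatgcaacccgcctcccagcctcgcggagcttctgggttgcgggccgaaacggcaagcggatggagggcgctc
Per3, chr4:151044616-151044915, minus strand, TTATGTAA at positions -205 and -158: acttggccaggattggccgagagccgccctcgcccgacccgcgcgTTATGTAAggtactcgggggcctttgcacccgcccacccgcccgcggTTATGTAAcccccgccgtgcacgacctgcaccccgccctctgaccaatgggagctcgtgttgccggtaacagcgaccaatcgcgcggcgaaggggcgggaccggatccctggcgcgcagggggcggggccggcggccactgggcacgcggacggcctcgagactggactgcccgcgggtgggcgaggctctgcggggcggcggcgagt
Cry1, chr10:85185005-85185304, minus strand, CACGTG at position -60: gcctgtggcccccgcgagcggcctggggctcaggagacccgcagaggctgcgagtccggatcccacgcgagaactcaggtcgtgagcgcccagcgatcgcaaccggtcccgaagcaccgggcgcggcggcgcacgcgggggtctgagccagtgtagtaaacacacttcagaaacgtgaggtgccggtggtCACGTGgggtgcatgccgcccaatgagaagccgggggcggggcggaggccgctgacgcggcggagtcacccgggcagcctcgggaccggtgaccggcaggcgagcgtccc
Npas2, chr1:39194022-39194321, plus strand, no match: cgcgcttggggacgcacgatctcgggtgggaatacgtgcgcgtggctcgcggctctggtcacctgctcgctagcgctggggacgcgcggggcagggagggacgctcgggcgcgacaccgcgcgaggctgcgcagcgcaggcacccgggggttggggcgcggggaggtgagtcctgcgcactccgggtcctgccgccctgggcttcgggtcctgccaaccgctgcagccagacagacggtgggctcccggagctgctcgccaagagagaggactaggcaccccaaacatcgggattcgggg
Of all 32851 RefSeq windows of that length, 7.15% hold CACGTG, 0.938% TTATGTAA, 0.119% TTACGTAA, 2.61% TAGGTCA, 3.98% TGGGTCA and 1.79% TGACGTCA. The tables hold 11 windows for 7 of the 8 members. The windows of Clock and Cry2, and the second windows of Arntl and Per1, had no match to these letters. The gene bodies lie at chr7:113178471-113314126 (Arntl), chr5:76209868-76305603 (Clock), chr1:39193702-39363240 (Npas2), chr11:69095108-69109965 (Per1), chr1:91415977-91459351 (Per2), chr4:150997018-151044707 (Per3), chr10:85131700-85185054 (Cry1) and chr2:92403646-92434085 (Cry2).

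The libraries held between 32889755 and 59120536 estimated counts each. Summed markers of cortex, hippocampus, cerebellum and spinal cord were highest in the tissue so labelled. One brain hemisection stood apart. DBA/1J replicate 1 had 0.0519 CPM (counts scaled for library size) of the Purkinje cell gene Pcp2 and 0.156 CPM of the granule cell gene Gabra6, where the other 23 hemisections had 14.7 to 35.1 and 50.4 to 126 CPM. The main group differences of the members that include this hemisection, the correlations of brain with cord and the comparison of hemisections with regions are given with and without it. Values of the other gene lists are given with it only.

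Levels of the members were first compared between tissues as TPM, a transcript abundance that is scaled for length and library size and can be set side by side across genes. Cry2, a cryptochrome repressor, had the highest level of the 8 genes in every hemisection (49.2 to 64.2 TPM) and hippocampus library (68.4 to 70.9 TPM). In cortex it had 75.8 to 89.7 TPM and in cerebellum 66.8 to 79.7 TPM, where Per1 was above it in 3 and 4 of the 6 libraries each. In spinal cord it had 33.4 to 44.8 TPM, and Clock was above it in 2 of 24 libraries. Npas2 spanned the widest range between tissues. It had 16.0, 21.3 and 20.2 TPM in DBA/1J cortex, 14.2, 15.4 and 17.4 in hippocampus, 15.3, 14.9 and 11.9 in brain hemisections, 4.80, 3.25 and 3.89 in spinal cord and 1.48, 1.5 and 1.34 in cerebellum. The cerebellum and spinal cord values lay below every forebrain and hemisection value, and the hippocampus and hemisection ranges overlapped.

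**Figure D1:**
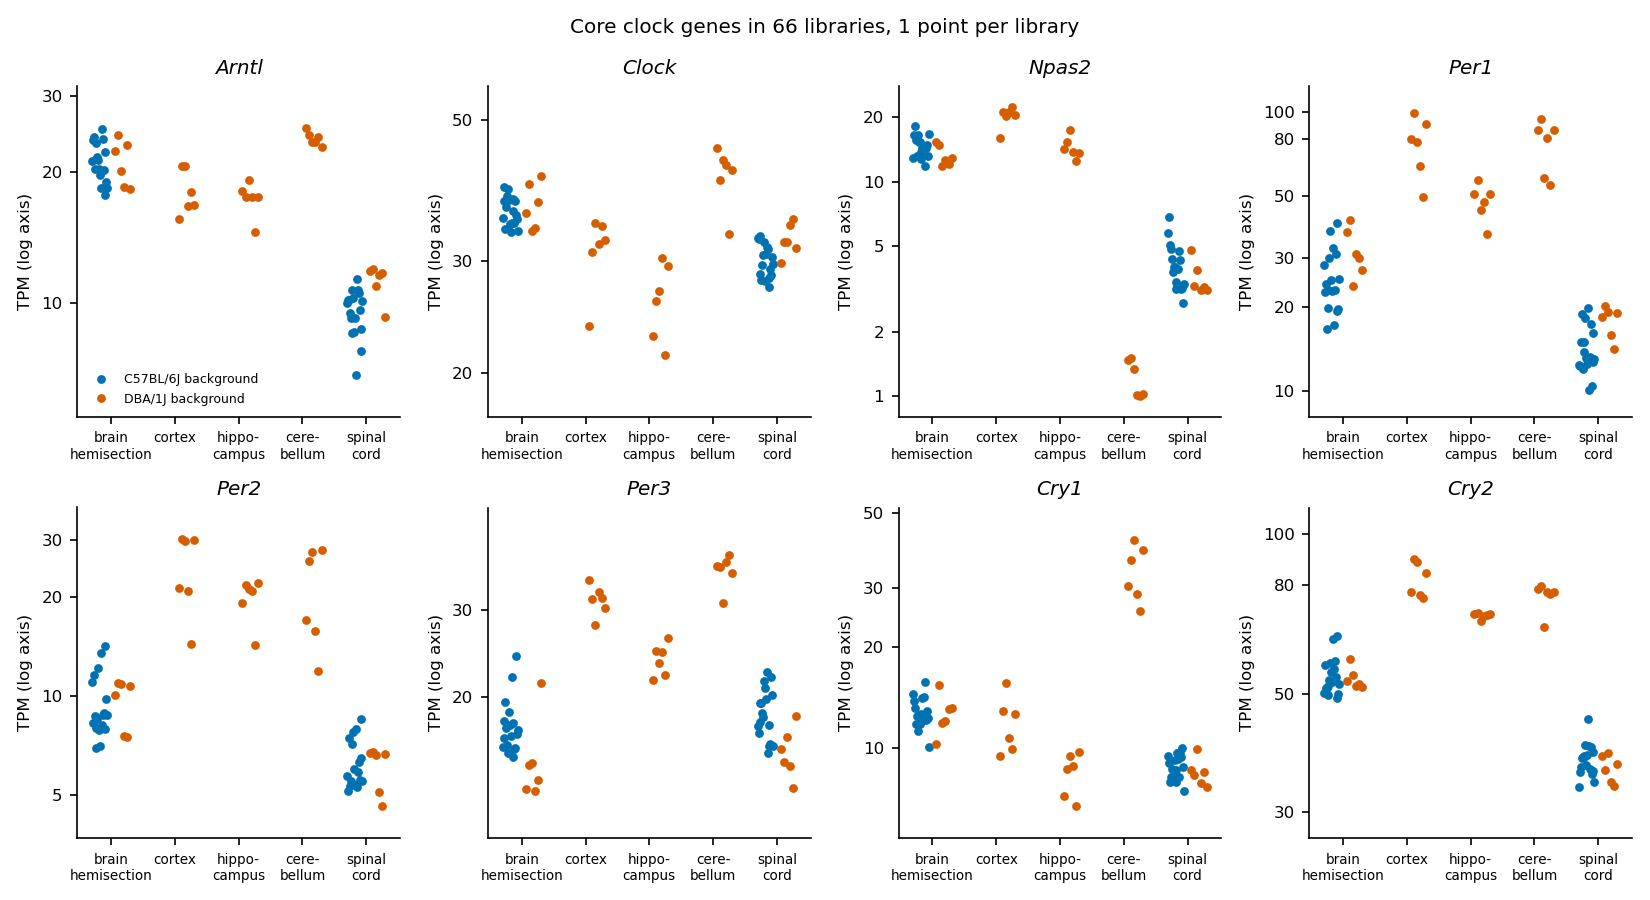
TPM (log axis) of the 8 core clock genes in each of the 66 libraries, by tissue, with 1 point per library. Npas2 falls to between 1.00 and 1.5 TPM in cerebellum, where Cry1 rises to between 25.6 and 41.7.

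Between cerebellum and cortex of the same 3 DBA/1J mice, Npas2 was 14.3-fold lower in cerebellum (log2 difference -3.84, SE 0.0943, adjusted p = 2.0e-09). Cry1, the other cryptochrome repressor, ran the opposite way, with 30.3, 36.3 and 41.7 TPM in cerebellum against 9.46, 12.9 and 15.6 in cortex. Its cerebellar values all lay above the cortical ones, as 67.6% of genes were apart in either direction (log2 difference 1.28, SE 0.167, 2.43-fold higher, adjusted p = 0.000128). Clock was 0.30 higher on the log2 scale (adjusted p = 0.0271) and Cry2 0.44 lower (log2 difference -0.44, adjusted p = 0.000751), although the TPM of Cry2 overlapped between the tissues. Thus 4 of 8 members passed, where 58.1% of all genes tested did. Arntl and Per3 did not pass, and Per1 and Per2 were near the threshold (adjusted p = 0.0714 and 0.052 by edgeR). Both passed as lower in cerebellum by DESeq2 (Per1 0.038 and Per2 0.0195), without the low-count filter (0.046 and 0.0229) and with the animal as a block (Per1 -0.37, adjusted p = 0.00619, and Per2 -0.47, adjusted p = 0.00251), which gave 6 called members in each case. Immediate early genes were lower in cerebellum (7 of 10 called, median log2 difference -2.49), as were all 5 microglial markers (median -2.16), and all 4 choroid plexus markers were higher (median 2.68), and their part in the clock values was not tested. The Clock call was lost when either of 2 libraries was left out. The median TPM of all genes was 0.27 higher in cerebellum on the log2 scale, and the TPM differences between these tissues stand relative to that shift.

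Hippocampus had less of most members than cortex. All 8 log2 differences were negative, and all 5 Per and Cry genes, and Npas2, passed. Arntl (-0.11, adjusted p = 0.496) and Clock (-0.22, adjusted p = 0.178) did not pass. Per1 had 50.9, 57.1 and 44.5 TPM in hippocampus against 80, 99.5 and 78.6 in cortex (log2 difference -0.77, adjusted p = 0.00265), without overlap, as for 35.6% of genes. Per3 was lower by -0.53 (adjusted p = 0.00693), Cry1 by -0.64 (adjusted p = 0.0229), Per2 by -0.44 (adjusted p = 0.0204), Npas2 by -0.34 (adjusted p = 0.0145) and Cry2 by -0.32 (adjusted p = 0.00857) on the log2 scale. The 6 of 8 stand against 10.8% of all genes called lower. Other lists moved in the same comparison. Immediate early genes were lower in hippocampus (6 of 10 called, median log2 difference -1.04), choroid plexus markers were higher (3 of 4 called, median 3.37), 2 of 5 microglial and 2 of 6 neuronal markers were lower and 2 of 5 astrocyte markers higher, and their part in the clock values was not tested. The count fell to 3 without DBA/1J cortex replicate 2, without hippocampus replicate 1 or without hippocampus replicate 3. Against cerebellum, where 64% of genes were called in either direction, hippocampus had 11.1-fold more Npas2 (log2 difference 3.47), 3.85-fold less Cry1 (log2 difference -1.95), and lower Clock (-0.54), Per3 (-0.45), Per1 (-0.44) and Arntl (-0.25). The Per1 call of that comparison had an adjusted p of 0.0154 by edgeR and 0.0631 by DESeq2. All 10 immediate early genes were called in that comparison, 7 higher and 3 lower in hippocampus. All 5 microglial markers were higher (median log2 difference 1.81), 3 of 6 oligodendrocyte markers were lower, 3 of 5 astrocyte markers were lower and 1 higher, and of 6 neuronal markers 3 were higher and 3 lower. The part of these lists in the clock values was not tested.

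Spinal cord had less of most members than brain hemisections of the same animals. In C57BL/6J mice, Npas2 had 5.78, 6.82 and 5.08 TPM in cord against 12.9, 16.5 and 18.3 in brain (log2 difference -1.52, 2.86-fold lower). Arntl had 10.01, 10.15 and 10.18 TPM against 21.2, 23.7 and 24.1 (log2 difference -1.16, 2.24-fold lower, adjusted p = 3.7e-09). Neither gene overlapped between the tissues, and 55.8% of all genes did not. Per1 (-0.88), Per2 (-0.74), Cry1 (-0.62), Cry2 (-0.59) and Clock (-0.14, adjusted p = 0.0192) were lower as well, and Per3 was the only member that did not pass (0.14, adjusted p = 0.124). The 7 of 8 called lower compare with 28.5% of all genes. DBA/1J mice gave 7 lower members too, against 25.6% of genes, with Npas2 at -1.79 (3.47-fold), Arntl at -0.98 and Per3 at 0.07. Without DBA/1J replicate 1, 7 members still passed and Cry1 moved from -0.52 to -0.65. The Clock call was lost in 3 of 6 fits that left out 1 library in C57BL/6J, and in 3 of 6 in DBA/1J (adjusted p up to 0.128). Of 6 neuronal markers, 5 were called lower and 1, Snap25, higher in cord of C57BL/6J (median log2 difference -1.02, Snap25 at 0.26) and likewise in DBA/1J, and all 6 oligodendrocyte markers were called higher (median 1.67 in C57BL/6J). Of 5 astrocyte markers, 3 were called higher and 1 lower in C57BL/6J (median 0.75), and 4 higher and 1 lower in DBA/1J (median 0.74). Of 10 glucocorticoid-responsive genes, 6 were called higher and 2 lower in C57BL/6J, and 4 higher and 1 lower in DBA/1J. Immediate early genes were lower in cord too, 10 of 10 in C57BL/6J (median -2.02) and 9 of 10 in DBA/1J (median -2.31). In bulk tissue, fewer cells of a type and less RNA per cell cannot be told apart. The part of cell makeup, activity genes and glucocorticoid-responsive genes in these differences was not tested.

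Whether the Rorb alleles changed the loop was asked in spinal cord and brain of each mutant. In spinal cord, 1 member, Npas2, passed the test, in the h2/h2 and the h4/h4 mutants. Npas2 had 12.2, 11.02 and 10.8 CPM in C57BL/6J cords. It had 7.29, 8.06, 7.03 and 7.51 CPM in Rorb h2/h2 and 6.75, 6.08, 6.05 and 7.61 CPM in Rorb h4/h4. All 8 mutant cords lay below all 3 controls. Groups did not overlap for 13.9% of all genes in the h2/h2 and 12.8% in the h4/h4 comparison. The fall was 0.60 on the log2 scale in the h2/h2 cords (log2 difference -0.60, SE 0.0786, 1.52-fold lower, adjusted p = 0.000541), rank 25 of 17464 genes by p, and 0.77 in Rorb h4/h4 (log2 difference -0.77, SE 0.091, 1.71-fold lower, adjusted p = 0.000574), rank 16 of 17427. All genes were called lower in 1.21% and 1.19% of cases in these comparisons, and in either direction in 2.09% and 1.75%. Across 13 other settings for each allele, the adjusted p of Npas2 ranged from 2.9e-07 to 0.0131 in Rorb h2/h2 and from 1.2e-09 to 0.0062 in Rorb h4/h4.

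The other alleles gave Npas2 values on the same side that did not pass. Rorb h1/h1 cords had 11.4, 9.90 and 8.36 CPM (log2 difference -0.21, SE 0.101, adjusted p = 0.461), which overlapped the C57BL/6J values. Rorb h3/h3 cords had 6.96, 8.30, 10.2 and 9.52 CPM (-0.38, SE 0.114, adjusted p = 0.147), all below the controls. Rorb h5/h5 cords had 6.70, 6.97 and 6.66 CPM against 9.16, 7.40 and 8.06 in DBA/1J (-0.27, SE 0.101, adjusted p = 0.536), again without overlap. Of all genes, 0.289%, 1.01% and 0.00581% were called in these 3 comparisons, and groups did not overlap for 16%, 13.2% and 14.7%. Rorb h1/h1 to h4/h4 share 1 set of 3 control cords, so their differences are not independent. Of the C57BL/6J-based differences, that of Rorb h1/h1, from the same identifier series as the controls, was the smallest. The parts of series, stock and allele in these differences were not tested.

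**Figure D2:**
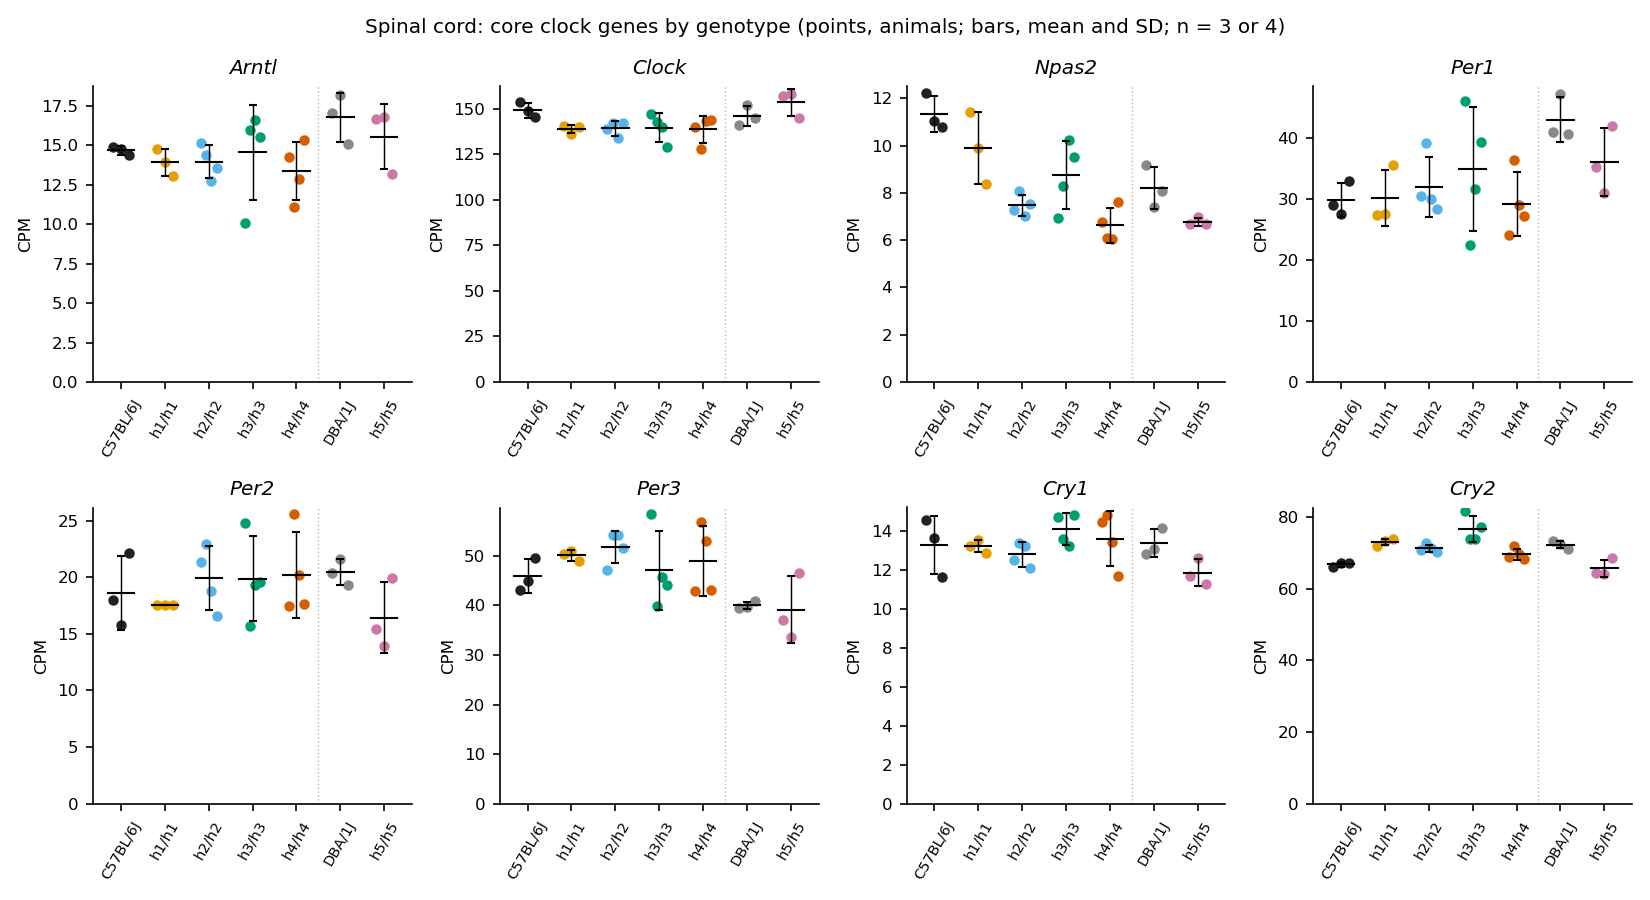
CPM of each core clock gene in spinal cord by genotype, with 1 point per animal and bars for the mean and SD (n = 3 or 4). For Npas2, the Rorb h2/h2 and Rorb h4/h4 animals sit between 6.05 and 8.06 CPM, below the C57BL/6J animals at 10.8 to 12.2.

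Other gene lists, chosen with earlier results of these data known, differed in the same cords. Of all genes, 1.21% were called lower in Rorb h2/h2 cord and 1.19% in Rorb h4/h4 cord. Glucocorticoid-responsive genes were lower in Rorb h2/h2 cord, where 5 of 10 passed (Plin4 -0.90, Sgk1 -0.80, Mt2 -0.60, Cdkn1a -0.52 and Tsc22d3 -0.24, median of the list -0.35 against 0.00 for all genes), in Rorb h4/h4 cord (5 of 10, median -0.27) and in Rorb h3/h3 cord (4 of 10), and 0 of 10 passed by edgeR in Rorb h1/h1 and Rorb h5/h5, with 4 and 0 at an unadjusted p under 0.05 and 1 and 0 called by DESeq2. In brain, where Npas2 did not pass, glucocorticoid-responsive genes were also called lower, 3 of 10 in the h2/h2, 2 in the h3/h3 and 2 in the h4/h4 mutants. Of 3 blood markers 1 was called lower in Rorb h2/h2 cord (median -0.28), and the median was -0.23 in Rorb h4/h4. The summed TPM of 6 neuronal markers was 2441 to 2543 in C57BL/6J cords, 2257 to 2372 in Rorb h2/h2 and 2240 to 2403 in Rorb h4/h4, and also low, at 2186 to 2277, in Rorb h1/h1. Of those markers 3 of 6 were called lower in Rorb h2/h2 (median -0.12) and 2 of 6 in Rorb h4/h4 (median -0.11). The summed oligodendrocyte markers overlapped between the C57BL/6J, Rorb h2/h2 and Rorb h4/h4 cords. The part of these shifts in the Npas2 result was not tested. Il1r1, whose targeted allele belongs to the stock of Rorb h4/h4, lies 0.859 Mb from Npas2, and its mean was 4.04 CPM in C57BL/6J and 3.83 CPM in Rorb h4/h4 cord. Whether the DNA of that stock differs from C57BL/6J at Npas2 was not tested. Of the genes tested within 1.5 Mb of Npas2, 27 for the h2/h2 and 28 for the h4/h4 cord, 0 were called by edgeR, with 2 and 1 at an unadjusted p under 0.05. In Rorb h3/h3 cord 1 of 28, Creg2, was called higher (0.23, adjusted p = 0.0243), with 4 at an unadjusted p under 0.05.

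In brain, Npas2 did not pass for any allele. C57BL/6J hemisections had 28.0, 31.0 and 37.6 CPM, Rorb h2/h2 29.7, 32.0, 27.2 and 27.4 CPM (log2 difference -0.15), and Rorb h4/h4 27.0, 29.0, 28.9 and 32.3 CPM (-0.14), and the groups overlapped. Whether the fall in cord exceeded that in brain was tested as an interaction over both tissues. The difference of the differences was -0.63 in Rorb h4/h4 (SE 0.14, adjusted p = 0.159) and -0.45 in Rorb h2/h2 (adjusted p = 0.718), so neither passed, where 0.0054% and 0% of all genes did. Over 12 other settings for Rorb h4/h4 the adjusted p ranged from 0.00882 to 0.712, and 3 passed: DESeq2 (0.0108), no low-count filter (0.00882) and the fit without C57BL/6J replicate 3 (0.0284). That mouse has the highest Npas2 of the 24 hemisections.

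Npas2 in the h5 regions gave no call either. In cerebellum Rorb h5/h5 had 1.97, 1.97 and 1.98 CPM against 2.90, 2.89 and 2.72 in DBA/1J (log2 difference -0.53, SE 0.152, adjusted p = 0.759), in hippocampus 27.7, 25.1 and 25.3 against 28.3, 30.4 and 32.2 (-0.22, adjusted p = 0.997), and in cortex 41.4, 43.5 and 40.1 against 35.5, 39.0 and 37.8 (0.15, adjusted p = 0.764). The mutants were the lower group in cerebellum and hippocampus and the higher one in cortex, with no overlap in any of the 3. Summed choroid plexus markers were 10.8 to 2016 TPM in the Rorb h5/h5 cerebella and 2527 to 3672 TPM in those of DBA/1J, and their part in the cerebellar value was not tested. With the identifier series as a block the cortical value was 0.09. For brain hemisections the values were 22.5, 23.8 and 24.3 in Rorb h5/h5 and 30.9, 29.6 and 24.9 in DBA/1J (-0.27, adjusted p = 0.692), also apart, and the value was -0.21 without DBA/1J replicate 1. Of all genes, 0% were called in cortex and in brain, 0.0118% in hippocampus and 0.012% in cerebellum, and groups of this size were apart for 12.2%, 11.6%, 9.79% and 11.2% of genes.

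The remaining positive limb genes did not pass in any mutant cord. Clock had 153, 148 and 145 CPM in C57BL/6J, and lay at 128 to 147 CPM in the 15 mutant cords of the C57BL/6J-based strains, with log2 differences of -0.10 for h1/h1 (adjusted p = 0.251), -0.10 for h2/h2 (0.117), -0.10 for h3/h3 (0.391) and -0.11 for h4/h4 (0.223). The Rorb h1/h1, h2/h2 and h4/h4 cords were all below the controls, and none of the 4 differences passed. Arntl had 14.9, 14.8 and 14.4 CPM in C57BL/6J cord, and the lowest mutant cords were Rorb h3/h3 replicate 1 (10.1 CPM, the others of its group 15.5 to 16.6) and Rorb h4/h4 replicate 2 (11.1 CPM, the others 12.9 to 15.3). The median log2 difference of the 3 positive limb genes was -0.10, -0.10, -0.10 and -0.13 in Rorb h1/h1 to h4/h4 cord, and that of the 5 negative limb genes 0.02, 0.09, 0.09 and 0.06. In Rorb h5/h5 cord both medians were negative, -0.10 for the positive and -0.17 for the negative limb.

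In the negative limb, Cry2 was higher in every mutant cord on the C57BL/6J side, without passing. C57BL/6J cords had 66.1, 67.2 and 67.1 CPM. The h1/h1 cords had 72.01, 73.3 and 73.8 CPM and the h2/h2 cords 70.7, 72.7, 71.3 and 70.3 CPM. The h3/h3 cords had 81.8, 73.96, 73.99 and 77.3 CPM and the h4/h4 cords 68.7, 71.8, 69.7 and 68.4 CPM. All 15 mutant cords lay above the highest control. The log2 differences were 0.13 (adjusted p = 0.17), 0.09 (0.172), 0.20 (SE 0.0442, 0.0519) and 0.06 (0.504). The Rorb h3/h3 difference passed in 5 of 13 other settings. In Rorb h5/h5 cord Cry2 was on the other side, with 64.4, 64.2 and 68.5 CPM against 73.3, 72.4 and 71.2 in DBA/1J (-0.13, adjusted p = 0.501), without overlap. Groups were apart for 2, 3, 2, 3 and 3 of the 8 members in Rorb h1/h1 to h5/h5 cord, against 16%, 13.9%, 13.2%, 12.8% and 14.7% of all genes.

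Brain hemisections gave 0 of 8 members past the test in any of the 5 mutants by edgeR, and 0 by DESeq2. At an unadjusted p under 0.05 there were 3, 1, 1, 1 and 3 members in Rorb h1/h1 to h5/h5. Of all genes, 0%, 0.136%, 0.164%, 0.703% and 0% were called. The period genes had the widest differences, among them Per2 in Rorb h1/h1 (log2 difference -0.37, SE 0.142). Per1 had 38.6, 43.7 and 47.2 CPM in Rorb h1/h1 against 65.1, 47.7 and 50.8 in C57BL/6J (log2 difference -0.33, SE 0.11), and Per2 had 23.6, 21.9 and 30.3 CPM in Rorb h5/h5 against 31.3, 34.0 and 33.8 in DBA/1J (-0.38, SE 0.114, adjusted p = 0.623). The groups of Per1 in Rorb h1/h1 and of Per2 in Rorb h5/h5 were apart, as were those of 10.1% and 11.6% of all genes. Immediate early genes, which mark recent neuronal activity, had a median log2 difference of -0.77 in Rorb h1/h1 brain, with 9 of 10 at an unadjusted p under 0.05, 0 called by edgeR and 3 by DESeq2, and their part in the Per1 value was not tested. The smallest adjusted p of any member was 0.998, 0.668, 0.419, 0.330 and 0.623 in the 5 mutants. Without DBA/1J replicate 1 the Rorb h5/h5 values were -0.42 for Per2, -0.21 for Npas2 and -0.19 for Cry2, and 0 members passed.

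**Figure D3:**
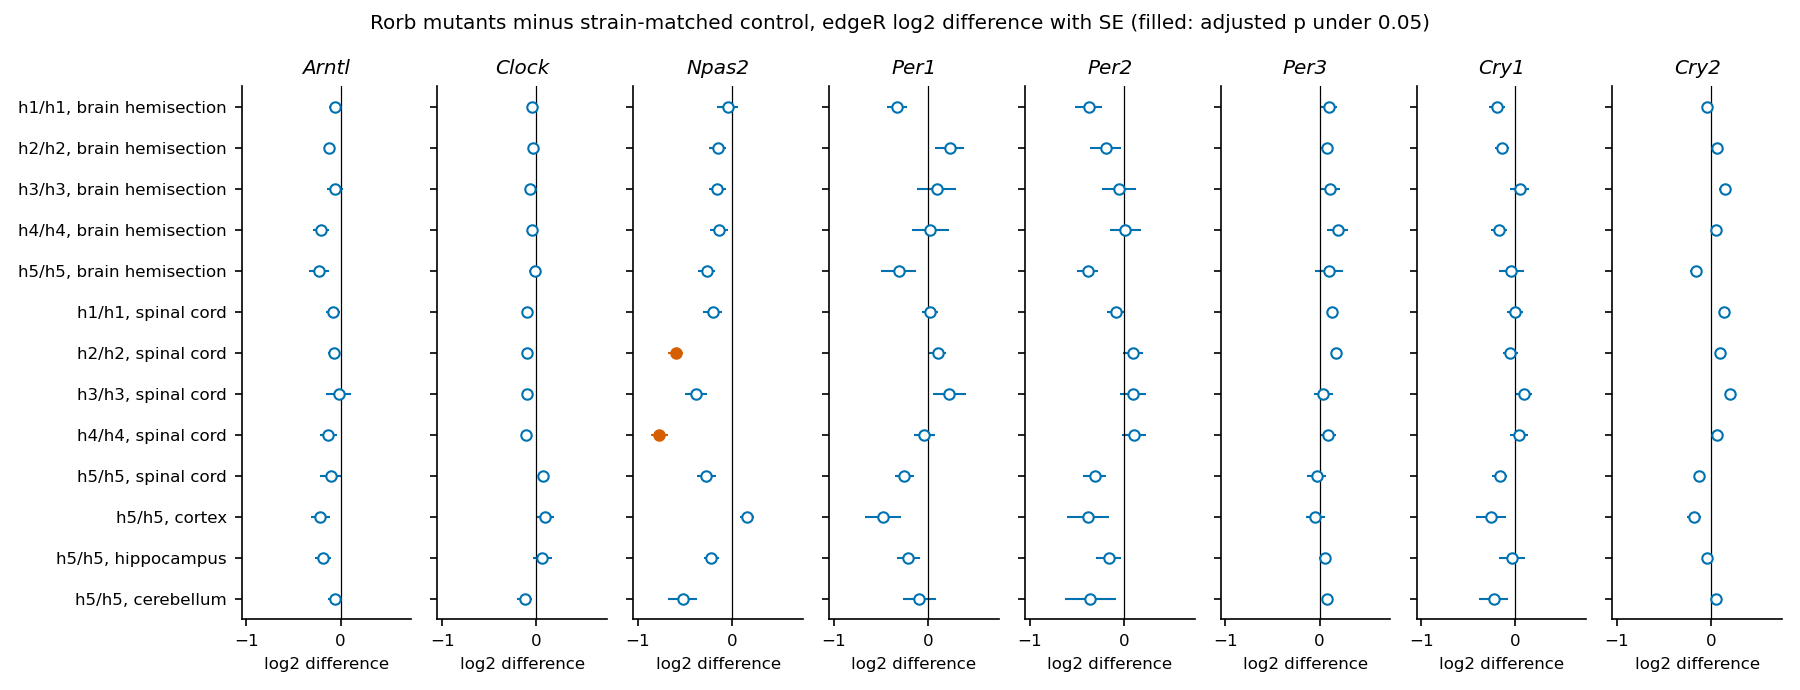
edgeR log2 difference of each Rorb mutant from its strain-matched control, with its SE, for the 8 genes in every tissue (filled points, adjusted p under 0.05). The 2 filled points are Npas2 in Rorb h2/h2 (-0.60) and Rorb h4/h4 (-0.77) spinal cord.

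In the h5 regions the same was found. In cortex, hippocampus and cerebellum 0 of 8 members passed by edgeR or by DESeq2, with 2, 1 and 1 members at an unadjusted p under 0.05 and smallest adjusted p of 0.764, 0.997 and 0.759. The shares of all genes called by edgeR were 0%, 0.0118% and 0.012%. Per1 in cortex had 136, 93.1 and 171 CPM in Rorb h5/h5 against 187, 209.7 and 161 in DBA/1J (log2 difference -0.48), and the groups overlapped. The DBA/1J and Rorb h5/h5 animals share some of their identifier series, and with the series as a block, an alternative chosen after seeing the data, Per1 was at -0.27 in cortex (adjusted p = 0.2) and moved from -0.09 to 0.17 in cerebellum. In brain, Cry1 was at -0.04, at 0.15 under that block and at -0.17 without DBA/1J replicate 1, and 0 members passed in any of the 5 tissues by edgeR.

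Rorb, the mutated gene, had mean levels of 38.5 CPM in C57BL/6J cord and 31.7, 23.3, 38.1 and 8.35 CPM in Rorb h1/h1 to h4/h4, and of 40.2 CPM in DBA/1J and 47.5 CPM in Rorb h5/h5. It was called lower in Rorb h1/h1, h2/h2 and h4/h4 cord and in Rorb h2/h2 and h4/h4 brain by edgeR. In Rorb h1/h1 brain it was at -0.60 on the log2 scale, with an adjusted p of 0.0838 by edgeR and 2.7e-08 by DESeq2. Among 29 further clock genes, which include the REV-ERB, ROR and PAR bZip families, those called in mutant cords besides Rorb were Dbp (log2 difference 0.51, adjusted p = 0.000468) and Tef (0.13, adjusted p = 0.0476), both higher in Rorb h2/h2, and Hlf, lower in Rorb h4/h4 (-0.26, adjusted p = 0.00373). Dbp and Tef are D-box activators whose own transcription is driven by the CLOCK and ARNTL heterodimer.

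The 2 control strains were compared as a background for the mutants. In spinal cord, DBA/1J against C57BL/6J gave 3 called members of 8, against 21.3% of all genes. Per1, a period gene that neuronal activity induces acutely, had 41.0, 47.3 and 40.8 CPM in DBA/1J and 29.0, 27.5 and 32.98 in C57BL/6J (log2 difference 0.53, SE 0.0781, adjusted p = 0.000297). Npas2 had 9.16, 7.40 and 8.06 CPM against 12.2, 11.02 and 10.8 (-0.46, SE 0.0974, adjusted p = 0.0039). Neither gene overlapped between the strains, and 37.1% of all genes did not. Both calls held in all 12 other settings. Per3 had 39.5, 39.8 and 40.8 CPM against 43.2, 45.0 and 49.7 (-0.20, SE 0.0595, adjusted p = 0.0297), a call lost in 1 fit of all cord groups (0.248) and in 4 of 6 fits that left out 1 library. Other lists moved in the same cords. Of 10 immediate early genes, 9 were tested and 5 were higher in DBA/1J (median log2 difference 0.53). Of 10 glucocorticoid-responsive genes, Pdk4 (1.17), Sgk1 (1.13) and Fkbp5 (0.30) were higher and Cdkn1a was lower (-0.61), with a median of -0.04, and 2 of 5 microglial markers were higher. Their part in the Per1 result was not tested.

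In brain the strain comparison gave 0 of 8 members by edgeR and by DESeq2, against 11.2% of all genes, with 1 member at an unadjusted p under 0.05. Per1 had 79.3, 96.1 and 55.1 CPM in DBA/1J and 65.1, 47.7 and 50.8 in C57BL/6J (0.50, SE 0.182, adjusted p = 0.124), a difference close in size to that in cord but with overlapping groups. It passed without DBA/1J replicate 3 (adjusted p = 0.0142), and without replicate 1 its value was 0.46. Npas2 was at -0.18 (adjusted p = 0.393) in brain, and at -0.25 (adjusted p = 0.28) without replicate 1. Pdk4 and Sgk1 were also higher in DBA/1J brain (0.70 and 0.86), and 0 of 10 immediate early genes passed by edgeR or DESeq2, with 2 at an unadjusted p under 0.05. Of 28 further clock genes tested between the strains in cord, 6 were called, a share close to the 21.3% of all genes. All 6 were lower in DBA/1J, namely Hlf, Vipr2, Btrc, Bhlhe40, Bhlhe41 and Arntl2, the last at -1.69 on the log2 scale.

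Mice of 1 group differed among themselves, and brain and cord of the same mouse gave 2 readings of each animal. After the group mean was removed, the deviations of the 24 animals in brain and in cord were correlated for the period genes and Arntl. Per3 had r = 0.868 (permutation p = 0.00019, adjusted p = 0.00076 over 12 relations computed) and rho = 0.796, Per2 r = 0.861 (permutation p = 2e-05, adjusted p = 0.00012) and rho = 0.830, Arntl r = 0.742 (permutation p = 0.00426, adjusted p = 0.0073) and rho = 0.619, and Per1 r = 0.708 (permutation p = 0.00239, adjusted p = 0.00478) and rho = 0.651. Across 13277 genes the median r was 0.067, and 5.95% exceeded 0.5. An animal high in a period gene for its group in brain tended to be high in cord.

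**Figure D4:**
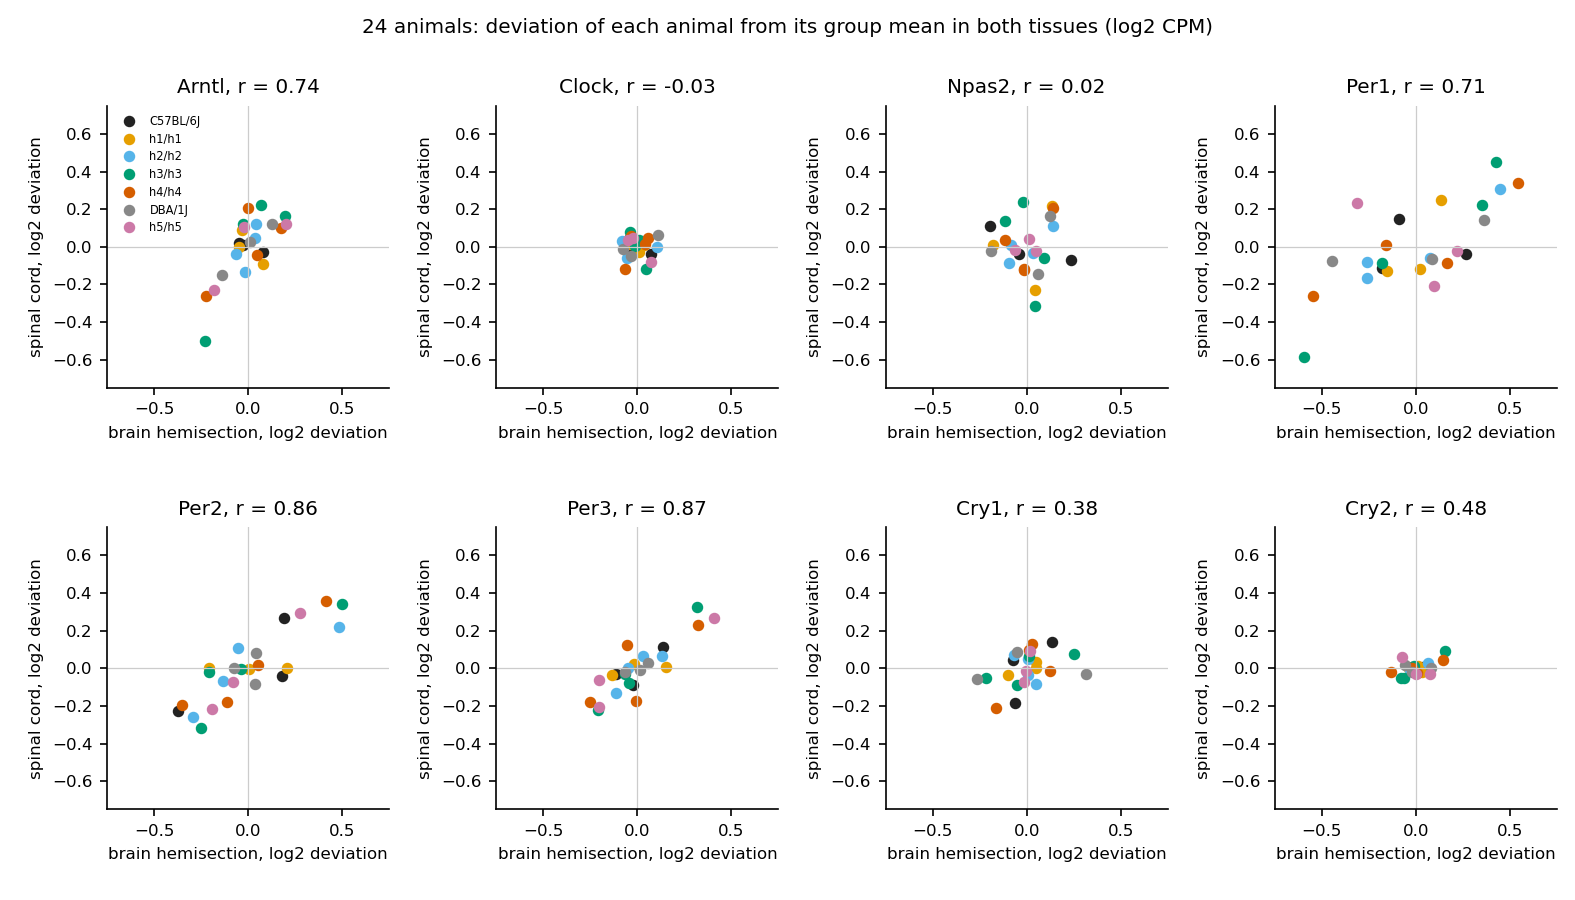
Deviation of each of 24 animals from its group mean in brain hemisection (x axis) and spinal cord (y axis), in log2 CPM, for the 8 genes. Per2 (r = 0.861) and Per3 (r = 0.868) lie along the diagonal, and Npas2 (r = 0.024) and Clock (r = -0.029) do not.

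Leaving out the 2 animals farthest from the median in brain gave 0.830 for Per2, 0.807 for Per3, 0.584 for Per1 and 0.586 for Arntl (permutation p = 0.0542), so the Arntl relation rests in part on Rorb h3/h3 replicate 1 and Rorb h4/h4 replicate 2. Cry1 had r = 0.384 (permutation p = 0.0873, adjusted p = 0.116) and Cry2 r = 0.477 (permutation p = 0.104, adjusted p = 0.125), which fell to 0.0846 without the 2 farthest animals. Clock and Npas2 had r = -0.029 and 0.024. Without DBA/1J replicate 1 the values over 23 animals were 0.869 for Per3, 0.864 for Per2, 0.741 for Arntl, 0.716 for Per1, 0.529 for Cry2, 0.354 for Cry1, -0.07 for Clock and -0.0655 for Npas2. From lowest to highest, CPM in the 24 hemisections spanned 1.17-fold for Clock, 1.48-fold for Arntl, 1.67-fold for Npas2, 1.70-fold for Per3, 1.99-fold for Per2 and 2.64-fold for Per1. These ranges include differences between groups, which the correlations leave out. The SD of the brain deviations from group means was 0.112 for Npas2, 0.169 for Per3, 0.243 for Per2 and 0.310 for Per1. It was 0.115 for Arntl and 0.0555 for Clock. Outputs and modulators of the loop also had correlated brain and cord deviations of their own, with r = 0.917 for Dbp, 0.850 for Tef, 0.826 for Ciart and 0.698 for Nr1d1.

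Arntl moved against the period genes from animal to animal. Over the 24 mice, deviations of Arntl and Per3 had a correlation of -0.75 in brain and -0.84 in cord, and Arntl and Cry2 -0.81 in cord. Of the 15 pairs of a positive and a negative limb gene, all 15 were negative in cord (-0.84 to -0.13), whereas in brain 8 were negative and 7 positive (-0.75 to 0.34), among them Npas2 with Per2 (0.34) and Clock with Cry1 (0.28). In the 6 hippocampus libraries 11 of the 15 were positive, with Arntl and Per2 at 0.81. Within the negative limb, Per2 and Per3 had 0.81 and 0.80, Per1 and Cry2 0.74 and 0.82, and Per1 and Per2 0.57 and 0.85, in brain and cord. Cry1 had lower values, 0.33 and 0.13 with Per1, 0.15 and 0.06 with Per2, 0.11 and 0.08 with Per3 and 0.25 and 0.21 with Cry2, and its values differed in sign in the 6 cortex, hippocampus and cerebellum libraries each, at 0.75, 0.89 and 0.97 with Per2, -0.90, 0.72 and -0.74 with Per3 and 0.79, -0.87 and -0.43 with Cry2. Npas2 followed Arntl in cord (0.67) more than in brain (0.24). These values are descriptions over libraries that share depth and preparation, and the difference between tissues was not tested.

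A limb balance was computed for each library as the mean log2 CPM of Arntl, Clock and Npas2 minus that of the 5 Per and Cry genes, each gene taken relative to its mean over the tissue. The lowest balances were those of Rorb h3/h3 replicate 1 (-0.41 in brain and -0.56 in cord) and Rorb h4/h4 replicate 2 (-0.44 and -0.54), and the highest in brain were 0.31 in Rorb h3/h3 replicate 2 and 0.27 in Rorb h1/h1 replicate 3. In cord the highest were C57BL/6J replicates 1 (0.30) and 2 (0.29), and the group means were 0.24 in C57BL/6J and 0.07, -0.10, -0.05 and -0.15 in Rorb h1/h1 to h4/h4. The mean of Rorb h5/h5 cord was 0.10, above the 0.01 of DBA/1J. Brain means were 0.09 in C57BL/6J and 0.20, -0.01, -0.06 and -0.05 in Rorb h1/h1 to h4/h4. They were -0.06 in DBA/1J and -0.07 in Rorb h5/h5 brain. Mice near both ends of the brain range stood in 1 group in Rorb h3/h3 and also in Rorb h4/h4, whose replicate 1 was at 0.24. In Rorb h3/h3 replicate 1, cord Arntl was 10.1 CPM with Per1 at 46.1, Per2 at 24.8 and Per3 at 58.5 CPM, and in replicate 2 of that group, Arntl was 16.0 CPM with Per1 at 22.4, Per2 at 15.7 and Per3 at 40.0 CPM. After removal of group means, the balances of the 2 tissues had r = 0.736 and rho = 0.60 over the 24 animals, and r = 0.734 without DBA/1J replicate 1, given as a description. With no time of collection, time of day and other differences between animals cannot be told apart.

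Genes with the pattern most like each limb were read from all 66 libraries, after removal of group means, among 13277 genes. The genes most opposed to Arntl were other clock genes, Tef (-0.77), Dbp (-0.75), Per3 (-0.72), Nr1d1 (-0.68) and Ciart (-0.66), and those most like it were Eml1 (0.63), Frem2 (0.58), Mmp14 (0.55), Klf12 (0.54) and Nfil3 (0.52). Those most like Per2 were Ccar1 (0.78), Spred2 (0.76), Jak2 (0.74), Banp (0.73) and Gpt2 (0.73), and the most opposed Trim36 (-0.76), Sox9 (-0.73), Cldn5 (-0.69), Slc16a1 (-0.67) and Nelfcd (-0.65). These are Pearson correlations and carry no test.

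The dissected regions, from mice labelled as other and younger animals, had higher TPM of the 3 period genes and Cry2, but not of Cry1, than the hemisections of the same background, a comparison that was not tested. Per2 had 7.52 to 11.01 TPM in the 6 DBA/1J and Rorb h5/h5 hemisections and 11.9 to 30.03 TPM in the 18 region libraries (ratio of medians 2.05). Per3 had 12.9 to 21.3 against 21.6 to 38.8 TPM (ratio 2.23), and Cry2 51.5 to 58.2 against 66.8 to 89.7 TPM (ratio 1.46). For these 3 genes every region library lay above every hemisection, which held for 2.15% of 15650 genes. Per1 had 23.8 to 41.3 against 36.6 to 99.5 TPM (ratio 2.00), with 17 of 18 region libraries above. The positive limb had ratios of 0.875 (Arntl), 0.883 (Clock) and 1.09 (Npas2), Cry1 had 0.929, with 8 of 18 region libraries below the lowest hemisection and 7 above the highest, and the median of all genes was 0.10 higher in regions on the log2 scale. Among output genes, Ciart (ratio 3.5), Dbp (2.94), Nr1d1 (2.05) and Tef (1.82) were also above in 18 of 18. Without DBA/1J replicate 1 the 3 genes were still above in 18 of 18, with ratios of 1.99 for Per2, 2.15 for Per3 and 1.47 for Cry2. Animals, age, dissection and collection differ together between these sets and cannot be told apart.

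**Figure D5:**
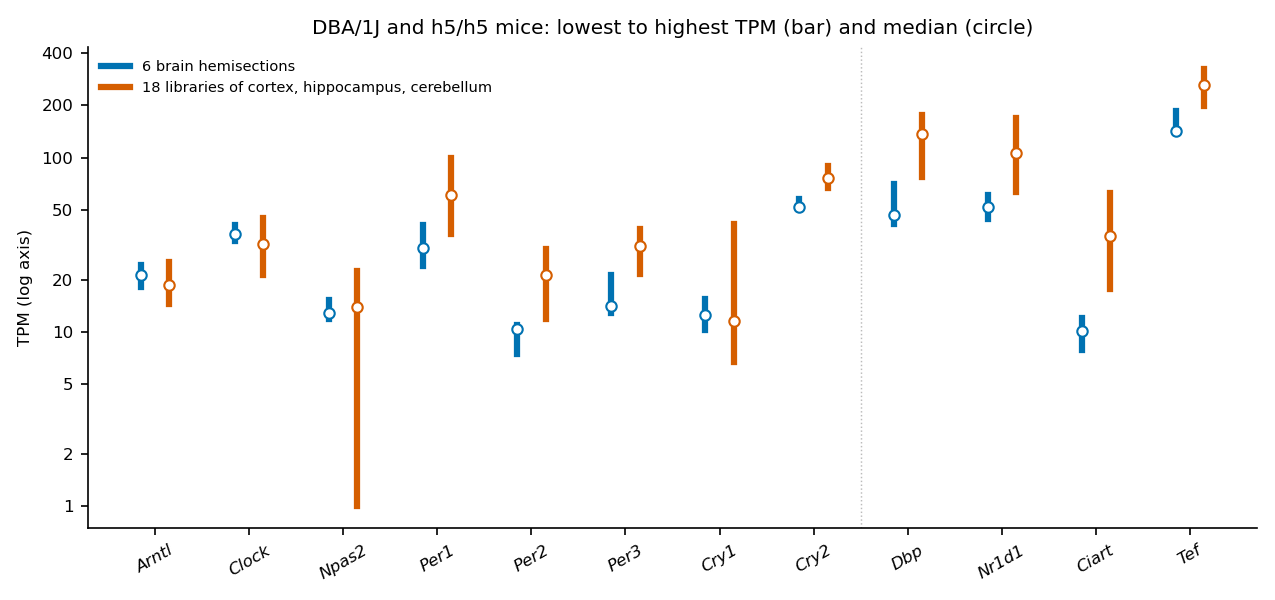
TPM in DBA/1J and Rorb h5/h5 mice: lowest to highest (bar) and median (circle) for the 6 brain hemisections and for the 18 cortex, hippocampus and cerebellum libraries. The bars of Per2, Per3 and Cry2 do not overlap, and those of Arntl, Clock, Npas2 and Cry1 do.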

How the data were processed

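RNA was measured by polyA-selected mRNA sequencing in 66 libraries of 20 groups. Per the study's methods, the authors trimmed reads, aligned them with STAR to GRCm38 and quantified genes with RSEM, and they deposited estimated (expected) counts and TPM for each gene. Replicates within a group are separate animals, and p-values measure the spread between them. The tissue comparisons and the interaction used tissues of the same animals. Their main fits held no term for the animal and treated these libraries as independent, with the animal as a block as an alternative. The deposited expected counts (5.07% of values not whole) were rounded, filtered with filterByExpr, scaled by TMM and tested with edgeR 4.0.16 in R 4.3.3 (quasi-likelihood test, Benjamini-Hochberg adjustment over all genes tested, threshold 0.05), fitting only the groups compared; adjusted p without another tool named are from this test. CPM are counts scaled to the TMM library size over all libraries of a tissue. Levels across tissues and genes use the deposited TPM. The interaction was fitted over both tissues. The members and lists were chosen with earlier results of these data known. The genes named with values are the 8 members in every comparison, the genes of each list called or changed most, Rorb, and the 5 genes highest and lowest in correlation with Arntl and with Per2.

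Brain and cord deviations were correlated over 24 animals with permutation within groups (scipy 1.17.1). Alternatives were DESeq2 1.42.0, its size factors in edgeR, no filter, sex, the replicate number or animal as a block, 1 fit of all groups, leaving out each library and, chosen after seeing the data, the identifier series as a block for Rorb h5/h5 and leaving out DBA/1J replicate 1 where its hemisection was used. Same-numbered samples did not deviate together in the mutant and strain comparisons (correlations between -0.33 and 0.24), so numbers were not treated as pairs there. Tested on simulated data, edgeR recovered 85% of genes changed by 0.5 on the log2 scale for Rorb h4/h4 cord and 72% for Rorb h1/h1 brain and for spinal cord against brain in C57BL/6J, with 5.13%, 6.52% and 10.9% of calls false. Each simulation held a set of genes made to change, and the share recovered depends on how many change. In the measured Rorb h1/h1 brain 0% of genes were called, and Rorb at -0.60 had an adjusted p of 0.0838. The simulated shares need not hold there.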

Additional observations from a re-analysis of the deposited data

Results flagged for a closer look

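Of 54 sets of 4 animals examined for a value far from the others, 1 stood out: Arntl in Rorb h3/h3 spinal cord, where replicate 1 had 10.1 CPM and the other 3 animals 15.5 to 16.6 CPM. Chance alone flags about 1 set in 20.

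The Npas2 difference between Rorb h5/h5 and DBA/1J changed direction between tissues. It was 0.15 on the log2 scale in cortex, and -0.27 in brain hemisections (-0.21 without DBA/1J replicate 1), -0.27 in spinal cord, -0.22 in hippocampus and -0.53 in cerebellum. In each tissue all 3 mutants were on 1 side of the controls. Among 80 pairs of tissues and genes checked, those of Npas2 between cortex and the others had this form. The difference between tissues was not tested, and none of the 5 values passed its own test.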

How the results depend on the processing

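The Npas2 calls in Rorb h2/h2 and Rorb h4/h4 cord kept their direction and passed in every alternative run. The replicate number as a block left the 1 called member in each of these cords and the 3 in the strain comparison of cord, and it changed the count in none of the other mutant or strain comparisons; cerebellum against cortex gave 6 called members in place of 4 with the animal as a block, by DESeq2 and without the low-count filter, 5 with DESeq2's size factors, and 3 to 5 without single libraries. Without the low-count filter there were 2 called members in Rorb h2/h2 cord, 2 in Rorb h3/h3 cord, 1 between the strains in brain and 1 in the Rorb h4/h4 interaction. In Rorb h3/h3 cord 1 member passed with DESeq2, with its size factors in edgeR and in 1 fit of all cord groups. DESeq2 also gave 1 in the Rorb h4/h4 interaction, and sex as a covariate 1 between the strains in brain. Leaving out single libraries moved the count from 1 to 2 in Rorb h2/h2 cord (without C57BL/6J replicate 3), and from 0 to 1 in Rorb h3/h3 cord (without its replicate 1), between the strains in brain (without DBA/1J replicate 3) and in the Rorb h4/h4 interaction (without C57BL/6J replicate 3); for hippocampus against cortex it ranged from 3 to 7 (7 without cortex replicate 1). The correlation of brain and cord was 0.586 for Arntl without the 2 farthest animals (permutation p = 0.0542), 0.415 for Cry1 with sex removed (permutation p = 0.0494) and, in an alternative chosen after seeing the data, -0.0655 for Npas2 without DBA/1J replicate 1. With only Arntl and Npas2 against the Per genes, the balance spanned 1.13 in brain, 1.21 in cord, 0.363 in hippocampus and 0.670 in cerebellum, in place of 0.743, 0.856, 0.207 and 0.488. The identifier series as a block, also chosen after seeing the data, left 0 called members in the Rorb h5/h5 comparisons and turned Cry1 in brain (-0.04 to 0.15, and -0.17 without DBA/1J replicate 1) and Per1 in cerebellum (-0.09 to 0.17). Clock in cord against brain lost its call in 3 of 6 fits without 1 library in each strain. The cause of these changes was not tested. Of the values for single genes, 428 kept their direction and side of the threshold, 28 lost a call and 17 gained one. At this depth the 66 libraries gave Npas2 between 68 and 2067 counts. With 3 or 4 animals a group, differences near 0.5 on the log2 scale were recovered in part in simulated data that held a set of changed genes.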
